A study of Rattus norvegicus with 6 samples.

Results

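The genes of the lysosome and of the vacuolar proton pump were followed in rat donor hearts on day 1 after heterotopic transplantation. A gene was a member if the deposited table lists it under the KEGG lysosome pathway or if its symbol begins with Atp6v, without the Slc11a iron and manganese transporters, of which 2 were left out. The rule took 135 of 22250 genes, 119 by pathway and 16 by symbol only. The 135 were 24 pump genes, 16 proteases, 28 hydrolases of glycans and sulfates with their activators, 16 hydrolases of lipids, nucleic acids and phosphates with their activators, 21 membrane proteins, 29 sorting and coat proteins, and Atp6v1fnb, which carries a pump name but is a neighbour gene and not a subunit. No measured value entered the rule.

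RNA-Seq of polyadenylated RNA compared left ventricular myocardium of 3 young (10 weeks) and 3 aged (1 year) male Sprague-Dawley donors of wild-type genotype. Every heart had been stored for 6 hours at 4 °C in University of Wisconsin solution and was then transplanted into a young syngeneic rat without immunosuppression, so storage and surgery are shared by both groups and no unstored or untransplanted heart is compared here. The hearts are named by their animal numbers, young 3, 13 and 15 and aged 3, 4 and 7. Each is a separate donor heart, in which host blood cells can be present as well as donor cells.

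Lysosomes are acidic organelles that break down proteins, glycans, lipids and nucleic acids delivered by endocytosis, phagocytosis and autophagy. The vacuolar proton pump acidifies them. Its cytosolic V1 sector splits ATP and its membrane V0 sector carries the protons, and several subunits exist as isoforms from different genes that differ between tissues. Soluble hydrolases reach the lysosome through mannose-6-phosphate tags and clathrin-coated carriers, and many lysosome genes carry the CLEAR element, an E-box bound by TFEB and its relatives TFE3, MITF and TFEC. Macrophages are rich in lysosomes, and cardiomyocytes use them chiefly for turnover of their own constituents.

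The promoters below are shown because they set a lysosome gene with many E-boxes beside members that differed strongly between the groups. RefSeq sequences on build GRCr8 were matched to 111 of the 135 members. Each line gives the 250 bases before the RefSeq start of the gene, 5′ to 3′ on the strand of the gene, with every CACGTG in capitals. Lamp1 (chr16:83075064-83075313, minus strand) and Ctsd (chr1:206968822-206969071, minus strand) hold several, Galc (chr6:123245560-123245809, minus strand) holds 1, and Tcirg1 (chr1:210567936-210568185, minus strand) and Abcb9 (chr12:38159902-38160151, plus strand) hold 0.
Lamp1: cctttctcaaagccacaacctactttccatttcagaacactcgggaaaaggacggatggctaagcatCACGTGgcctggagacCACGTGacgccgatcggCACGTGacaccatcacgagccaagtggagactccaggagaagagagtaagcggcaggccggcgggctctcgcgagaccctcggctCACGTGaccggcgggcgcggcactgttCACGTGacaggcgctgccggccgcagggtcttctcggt
Ctsd: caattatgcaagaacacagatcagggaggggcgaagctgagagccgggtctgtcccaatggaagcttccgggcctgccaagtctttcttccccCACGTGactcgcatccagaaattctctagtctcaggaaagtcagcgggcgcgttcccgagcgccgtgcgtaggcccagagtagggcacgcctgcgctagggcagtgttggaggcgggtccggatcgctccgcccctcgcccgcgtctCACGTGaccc
Galc: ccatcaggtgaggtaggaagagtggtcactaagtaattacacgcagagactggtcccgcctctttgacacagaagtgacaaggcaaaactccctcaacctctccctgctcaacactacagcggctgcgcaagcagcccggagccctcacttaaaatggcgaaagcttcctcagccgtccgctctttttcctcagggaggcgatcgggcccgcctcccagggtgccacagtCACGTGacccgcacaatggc
Tcirg1: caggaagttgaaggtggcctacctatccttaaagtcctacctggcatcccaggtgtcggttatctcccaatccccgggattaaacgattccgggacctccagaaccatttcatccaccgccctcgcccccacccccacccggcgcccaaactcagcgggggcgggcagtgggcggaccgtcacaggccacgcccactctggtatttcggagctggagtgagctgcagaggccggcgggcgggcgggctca
Abcb9: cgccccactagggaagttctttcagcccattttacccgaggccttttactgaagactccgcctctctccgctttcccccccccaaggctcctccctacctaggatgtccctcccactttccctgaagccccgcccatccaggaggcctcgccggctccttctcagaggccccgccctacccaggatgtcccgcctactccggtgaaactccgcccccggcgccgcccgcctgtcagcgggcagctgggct

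Before the results, 2 hearts that stood apart must be named. Total counts were similar, from 21457509 to 24560869 per heart. Cardiomyocyte markers summed to 78500 and 88160 CPM (read counts scaled to a common library size with TMM normalization factors) in young 3 and young 13, to 11200 in young 15, to 6349 and 4756 in aged 4 and aged 7, and to only 137.3 in aged 3. Myh6, the cardiac myosin heavy chain, was at 13.63 CPM in aged 3 and at 26870 and 29950 CPM in young 3 and young 13, so the heart labelled aged 3 held almost none of the RNA that defines its labelled tissue, although each of the 10 markers found in the table was above 0 there. Macrophage markers summed to 324.1, 302.8 and 971.9 CPM in the young hearts and to 2597, 1597 and 1115 CPM in the aged hearts, with none of the 10 at 0, and 6 of 10 were higher in the aged hearts and 0 lower. Neutrophil markers summed to 17.12, 17.29 and 143.9 CPM in the young hearts and to 1468, 385.1 and 833.4 CPM in the aged hearts, and 9 of 9 tested were higher. Young 15 thus lay between the other young hearts and the aged hearts on all 3 lists. By the limits given below, 4 of the 10 cardiomyocyte markers were lower in the aged hearts and 0 higher. By the same limits 13.2% of all genes tested were higher and 19% lower. In bulk tissue, fewer cells of a type and less RNA per cell cannot be told apart.

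Lysosome and pump genes made up a larger part of the RNA in the aged hearts. They took 1.095%, 1.07% and 1.954% of the non-mitochondrial counts in young 3, 13 and 15, and 3.325%, 2.469% and 2.215% in aged 3, 4 and 7. Mitochondrial counts, left out here, were 21.68%, 21.69% and 11.88% of all counts in the young and 6.565%, 7.994% and 10.31% in the aged hearts, and their part in other values was not tested. In the member share the groups did not overlap, but young 15 was closer to aged 7 than to the other young hearts. Much of the difference lay in a few abundant genes: Ctsb, Ctsd and Ctsl, which encode cathepsins, and Psap, which encodes the sphingolipid activator precursor prosaposin, together held 23.19%, 23.65% and 31.93% of all member counts in the young hearts and 41.63%, 37.05% and 36.3% in the aged hearts.

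Of the 135 members, 117 had enough counts to be tested. By the study's limits (fold change above 1.5 or under 0.67 with a p under 0.05, taken here as unadjusted, in edgeR's quasi-likelihood test), 33 members were higher in the aged hearts, 13 were lower and 71 were neither. Over all 13784 genes tested, 13.2% were higher and 19% lower. The median log2 fold change, aged minus young, was 0.30 over the members and 0.016 over all genes tested. All 3 aged hearts lay above all 3 young hearts for 43 members and below them for 15, against 21% and 20.6% of all genes, and the groups overlapped for 59. No member, as no gene of the table, reached a Benjamini-Hochberg adjusted p under 0.05 in edgeR, with member values from 0.0916 to 0.966. An unadjusted edgeR p under 0.05 was found for 51 of 117 members and for 4731 of all 13784 genes tested. DESeq2 with the same fold change limits and an adjusted p under 0.05 called 23 members higher and 10 lower of the 116 for which it gave an adjusted p, against 9.25% and 16.1% of all genes. Under scaling by library totals alone the median of all genes moved from 0.016 to 0.46 and the member counts became 47 higher and 6 lower, against 22.8% and 10.5% of all genes, so that 88.7% rather than 71.7% of the member calls were higher.

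The 2 hearts that stood apart moved these counts in opposite directions. Without young 15, 49 members were higher and 15 lower, against 26.9% and 24.2% of all genes tested, 16 and 3 of them new calls. Without aged 3, 10 were higher and 9 lower, against 7.47% and 14.7%. Without both, an alternative chosen after the data had been seen, 47 were higher and 16 lower, against 27.2% and 26.2%, and all 33 higher calls and 12 of the 13 lower calls remained. Of the other 4 hearts, leaving out young 3 gave 7 higher and 8 lower (5.83% and 11.5% of all genes) and leaving out young 13 gave 8 and 8 (6.13% and 11.6%). Leaving out aged 4 gave 15 and 11 (9.97% and 15.3%) and leaving out aged 7 gave 31 and 8 (8.79% and 13.7%). The members higher in all 6 of these single-heart omissions were 7, namely Acp5, Cln3, Ctsc, Gga3, Litaf, Neu1 and Npc2, and those lower in all 6 were 8, namely Abcb9, Arsg, Atp6v0e2, Atp6v1g2, Entpd4, Fuca2, Hyal1 and Smpd1. Every other call was lost in at least 1 omission. The share of all genes called in all 6 omissions was not computed, so these members are not set against it. With the macrophage marker level as a covariate 0 members were higher and 1 lower, against 1.36% and 3.06% of all genes, and with the cardiomyocyte marker level 3 and 1, against 2.34% and 2.76%, so the calls fell over the whole table as well. The macrophage level itself did not overlap between the groups, with mean log2 CPM from 4.53 to 5.98 in the young and from 6.31 to 7.29 in the aged hearts. Nor did the cardiomyocyte level, from 9.45 to 12.2 in the young and from 3.14 to 8.64 in the aged hearts. Neither fit can separate its marker level from donor age.

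**Figure D1:**
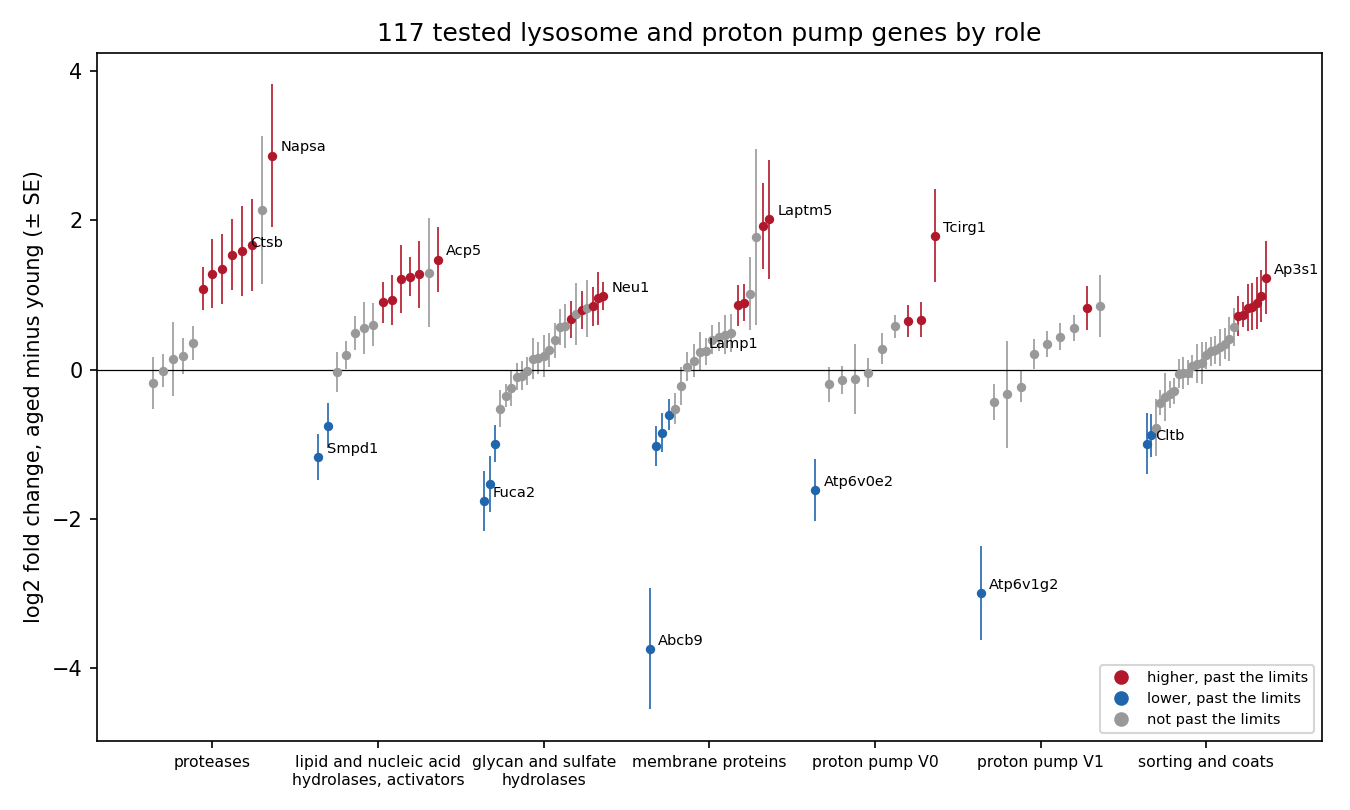
Log2 fold change (aged minus young, vertical axis, bars ± SE from the edgeR fit of 3 against 3 hearts) of the 117 tested members, grouped by role and ordered by size within each role. Red points are the 33 members higher past the limits, blue points the 13 lower and grey points the 71 that were neither. The proteases hold 7 red and 0 blue points, where 13.2% of all genes tested were higher and 19% lower. The deepest falls are Abcb9 and Atp6v1g2.

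The proteases showed the largest shift of any role. Of 13 tested, 7 were higher in the aged hearts and 0 lower, against 13.2% and 19% of all genes tested. The median log2 fold change of the proteases was 1.28. Ctsb encodes cathepsin B, a cysteine protease, and was the member with the highest FPKM (read count scaled by gene length and library size) in every aged heart. It stood at 570.3, 577.5 and 1835 CPM in young 3, 13 and 15 and at 3890, 2721 and 2359 CPM in aged 3, 4 and 7. Every aged heart was above every young heart, and young 15 was far above the other young hearts, for a log2 fold change of 1.59 ± 0.603 (SE, edgeR adjusted p = 0.126). Ctsl, the gene of cathepsin L, was at 397.5, 365.3 and 785.8 CPM in the young and 2196, 1163 and 1140 CPM in the aged hearts. Its log2 fold change was 1.54 ± 0.474 (edgeR adjusted p = 0.0973), with aged 3 far above the other aged hearts.

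Ctsd encodes the aspartic protease cathepsin D and lies at chr1:215541542-215553451 on the minus strand (Rnor_6.0, the build named in the submitters' processing notes). It was at 425, 473.5 and 1036 CPM in the young and 2052, 1610 and 1261 CPM in the aged hearts, again without overlap and with young 15 nearest to the aged hearts (log2 fold change 1.35 ± 0.466, edgeR adjusted p = 0.111). Lgmn, whose product legumain trims other cathepsins into their mature forms, was at 167, 179.3 and 628.7 CPM against 1413, 939.5 and 748.9 CPM (log2 fold change 1.67 ± 0.619, edgeR adjusted p = 0.122). Napsa, which encodes napsin A, an aspartic protease best known from lung and kidney, had the largest log2 fold change of all members at 2.86 ± 0.956 (edgeR adjusted p = 0.105). It was scarce in the young hearts, at 2.662, 1.526 and 17.26 CPM, and reached 80.96, 30.78 and 46.02 CPM in the aged hearts.

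Ctsz, the gene of the carboxypeptidase cathepsin Z, was at 16.09, 17.36 and 178.8 CPM in the young and 362, 345.1 and 230 CPM in the aged hearts. The groups did not overlap, yet the distance of young 15 from the other young hearts left it outside the limits (log2 fold change 2.14 ± 0.99, edgeR adjusted p = 0.173). Without young 15 it was higher, with a log2 fold change of 4.26 (unadjusted edgeR p of 8.81e-06). Ctsk, which encodes the collagen-degrading cathepsin K of osteoclasts and fibroblasts, was at 21.54, 18.88 and 29.37 CPM in the young and 21.48, 25.13 and 22.53 CPM in the aged hearts, with a log2 fold change of -0.01 ± 0.221 and overlapping groups. The calls of Ctsb, Ctsd and Lgmn were each lost without young 3, young 13, aged 3 or aged 4, and that of Ctsb also without aged 7, with unadjusted edgeR p up to 0.111, 0.0884 and 0.0936. That of Ctsl was lost without young 3 or young 13 (up to 0.0605) and that of Napsa without young 3 or aged 3 (up to 0.063). Ctss, the gene of cathepsin S of antigen-presenting cells, is not assigned to the lysosome by the table and so is no member; it was higher as well (log2 fold change 2.09 ± 0.553, edgeR adjusted p = 0.0916). Among the proteases, 2 were higher without aged 3 and 8 without young 15, against 7.47% and 26.9% of all genes tested. The protease level moved with the macrophage marker level across the hearts. With that marker level as a covariate 0 of 13 proteases were higher and 0 lower, against 1.36% and 3.06% of all genes. Their median log2 fold change was then -0.057, and 0.50 with the cardiomyocyte marker level. Neither the macrophage nor the cardiomyocyte level overlapped between the groups, so these fits cannot separate the marker levels from donor age. The part of these cell types was not tested further.

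**Figure D2:**
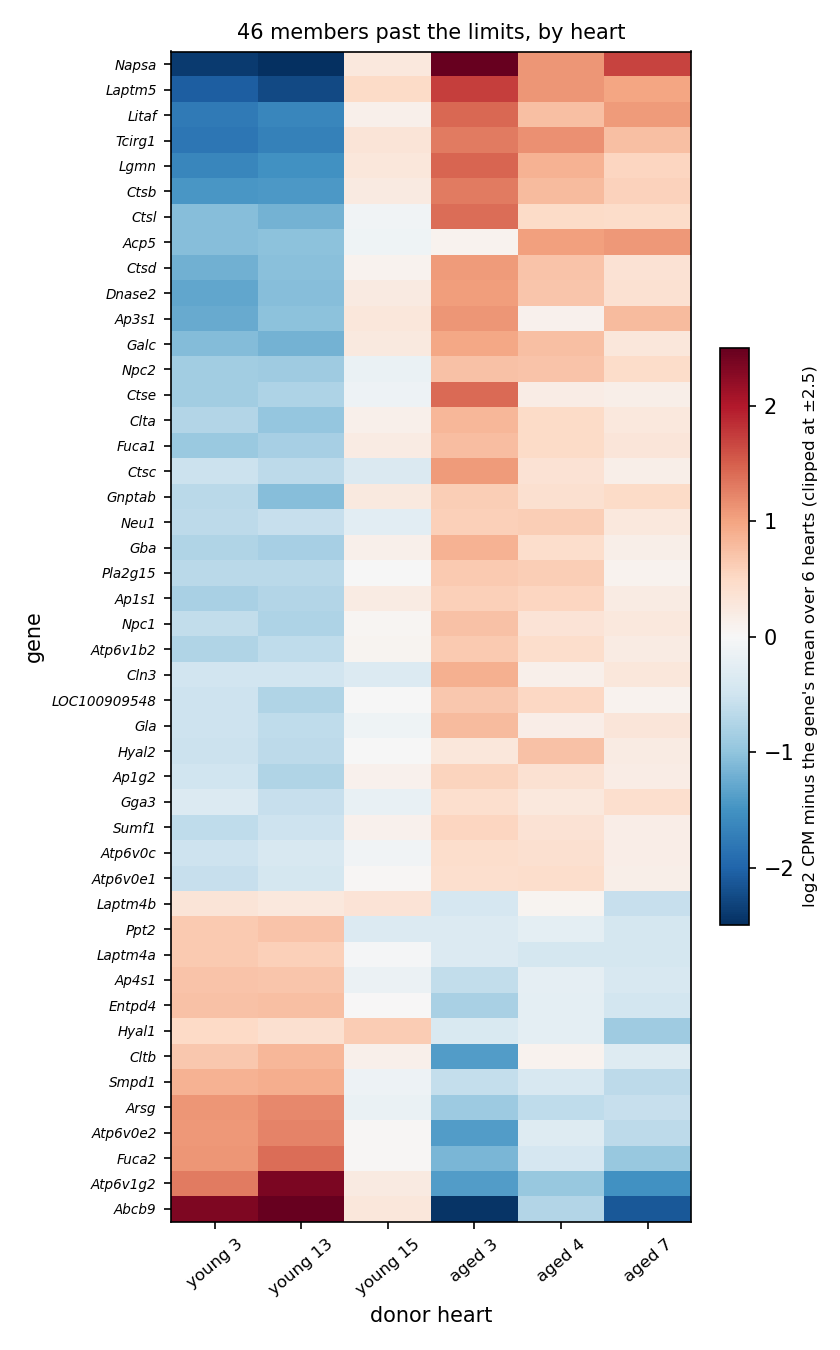
Log2 CPM of the 33 higher and 13 lower members in each of the 6 donor hearts, centred on the mean of the gene over the hearts; red is above that mean and blue below, clipped at the ends of the scale. Young 3 and young 13 form a pair of like columns, young 15 is near the middle of the scale for most genes, and aged 3 is the highest heart for 28 of the 33 higher members.

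The hydrolases of lipids, nucleic acids and phosphates were the next group, with a median log2 fold change of 0.75. Of 14 tested, 6 were higher and 2 lower, against 13.2% and 19% of all genes tested. Npc2 encodes the soluble cholesterol carrier of the lysosome lumen. It was at 66.79, 65.43 and 108.5 CPM in the young and 202.6, 200 and 168.2 CPM in the aged hearts, a clear gap between the groups (log2 fold change 1.25 ± 0.262, edgeR adjusted p = 0.0916). Its partner in the limiting membrane, Npc1, was at 29.16, 26.32 and 46.38 CPM against 74.32, 56.98 and 53.84 CPM (log2 fold change 0.86 ± 0.272, edgeR adjusted p = 0.0986). The span of Npc1 overlaps that of Rmc1 on the other strand, and whether counting used strand is not given in the sources used here.

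Acp5 encodes the tartrate-resistant acid phosphatase of osteoclasts and activated macrophages. It was low in all hearts, at 1.996, 2.035 and 3.965 CPM in the young and 4.499, 8.682 and 9.158 CPM in the aged hearts, and unlike most higher members it was lowest among the aged hearts in aged 3 (log2 fold change 1.47 ± 0.433, edgeR adjusted p = 0.0939). Dnase2, which encodes the acid DNase that digests DNA of engulfed cells, was at 15, 17.8 and 43.66 CPM against 76.92, 59.86 and 48.47 CPM (log2 fold change 1.27 ± 0.446, edgeR adjusted p = 0.113). Galc, the galactosylceramidase gene whose promoter is shown above, was at 5.384, 5.023 and 13.59 CPM against 22.33, 19.45 and 13.99 CPM, so that young 15 and aged 7 were nearly level (log2 fold change 1.21 ± 0.45, edgeR adjusted p = 0.122). The calls of Dnase2 and Galc were lost without young 3, young 13, aged 3 or aged 4, with unadjusted edgeR p up to 0.0788 and 0.097.

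Smpd1 went the other way. It encodes acid sphingomyelinase, which releases ceramide from sphingomyelin. It was at 223.7, 232 and 113.3 CPM in the young and 81.38, 93.56 and 78.06 CPM in the aged hearts, with no overlap (log2 fold change -1.17 ± 0.31, edgeR adjusted p = 0.0916). Psap was abundant everywhere, at 1190, 1290 and 1403 CPM in the young and 2294, 1949 and 1459 CPM in the aged hearts; the aged values were all higher, but the difference of 0.55 ± 0.343 on the log2 scale was not past the limits. Lipa, the lysosomal acid lipase gene, was at 117.2 to 124.1 CPM in the young and 123.5 to 165 CPM in the aged hearts and was not past them either (0.20 ± 0.189).

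Glycan and sulfate hydrolases were mixed. Of 23 tested, 5 were higher, 3 lower and 15 neither, against 13.2% higher and 19% lower over all genes tested. The median log2 fold change of the group was 0.19. Neu1, which encodes the sialidase that trims terminal sialic acids, was at 22.57, 23.72 and 29.65 CPM in the young and 53.34, 54.59 and 42.57 CPM in the aged hearts. It had the smallest p of this role, with both groups tight and apart (log2 fold change 0.99 ± 0.192, edgeR adjusted p = 0.0916). Fuca1, the lysosomal fucosidase gene, was at 34.61, 36.94 and 76.66 CPM against 113.3, 92.39 and 81.12 CPM (log2 fold change 0.95 ± 0.353, edgeR adjusted p = 0.122). Its close relative Fuca2, whose product is largely secreted, fell by 1.76 ± 0.4 on the log2 scale (edgeR adjusted p = 0.0916), from 36.66, 45.02 and 17.55 CPM to 7.718, 12.74 and 8.813 CPM.

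The other lower genes of this group were Hyal1 and Arsg. Hyal1, a hyaluronidase gene, was at 14.7, 13.8 and 16.19 CPM in the young and 8.014, 8.833 and 5.595 CPM in the aged hearts, and here young 15 was the highest of all hearts (log2 fold change -0.99 ± 0.246, edgeR adjusted p = 0.0916). Its relative Hyal2 was higher, at 49.31, 45.46 and 70.83 CPM against 86.77, 119.2 and 82.73 CPM (0.80 ± 0.252, edgeR adjusted p = 0.0985). Arsg, which encodes an arylsulfatase that acts on heparan sulfate, was at 78.22, 83.55 and 32.55 CPM against 19.28, 23.54 and 24.45 CPM (-1.53 ± 0.371, edgeR adjusted p = 0.0916). The span of Arsg overlaps that of the autophagy gene Wipi1 on the other strand by 3585 bases, and Wipi1 was also lower (-1.67 ± 0.455), and reads within the overlap could have been counted for either gene.

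The enzymes most used as lysosome markers in the laboratory were among the 15 that were neither. Hexa, a hexosaminidase gene, had a log2 fold change of 0.19 ± 0.281, and Glb1, the gene of the β-galactosidase used to stain senescent cells, 0.39 ± 0.235. Glb1 was at 33.58, 36.5 and 46.3 CPM in the young and 62.76, 51.03 and 38.97 CPM in the aged hearts, with aged 7 below young 15. Gusb (β-glucuronidase) was at 0.82 ± 0.384 (1.31 and higher without young 15), and Gaa, the acid α-glucosidase that degrades glycogen, at -0.52 ± 0.253, from 131.3, 137.8 and 78.27 CPM to 76.82, 86.02 and 79.24 CPM. Gla, the α-galactosidase gene, was higher (0.85 ± 0.261, edgeR adjusted p = 0.0973), at 10.53, 9.792 and 14.08 CPM against 26.21, 17.06 and 18.78 CPM, a call lost without young 3, young 13 or aged 3. The calls of Fuca1 and Hyal2 were also lost in 4 and 3 of the single-heart omissions.

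Among the membrane proteins, 4 of 20 tested were higher and 4 lower, against 13.2% and 19% of all genes tested. The median log2 fold change of the group was 0.32. The structural proteins of the membrane were not past the limits. Lamp1, which with Lamp2 makes up much of the glycoprotein coat of the membrane, was at 550.4, 560.6 and 524.4 CPM in the young and 774.3, 620.4 and 533.7 CPM in the aged hearts (log2 fold change 0.24 ± 0.261). Lamp2 was at 107.9, 121.8 and 137.8 CPM against 225.2, 146.6 and 143.6 CPM (0.49 ± 0.249), Scarb2, the receptor that carries glucocerebrosidase, differed by 0.40 ± 0.196, and the calcium channel gene Mcoln1 by 0.24 ± 0.176.

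The higher members of this group included Laptm5 and Litaf. Laptm5 encodes a lysosomal membrane protein of blood-derived cells and was at 29.52, 25.43 and 172 CPM in the young and 407.9, 264.5 and 243.1 CPM in the aged hearts (log2 fold change 2.01 ± 0.795, edgeR adjusted p = 0.135). Litaf, whose product sits on late endosomes and is induced by lipopolysaccharide in macrophages, was at 50.64, 55.19 and 188.7 CPM against 466, 287.9 and 360.9 CPM (1.92 ± 0.577, edgeR adjusted p = 0.0953). Cln3, the gene mutated in juvenile Batten disease, was at 13.79, 13.86 and 15.24 CPM against 35.54, 20.96 and 23.3 CPM (0.90 ± 0.25, edgeR adjusted p = 0.0923), and for this gene young 15 was level with the other young hearts.

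Cd68, the macrophage relative of the Lamp genes, was at 8.833, 6.867 and 148.9 CPM in the young and 220, 213.6 and 128.8 CPM in the aged hearts. Young 15 lay above aged 7, and the difference of 1.77 ± 1.18 on the log2 scale was not past the limits. Cd63, a tetraspanin of late endosomes, was at 193.6, 186.9 and 554.4 CPM against 557.4, 729.8 and 605.8 CPM, with young 15 just below the aged hearts, and was not past the limits either (1.02 ± 0.488). Without young 15 both were higher, with log2 fold changes of 4.61 for Cd68 and 1.77 for Cd63 (unadjusted edgeR p of 1.44e-05 and 0.000268). The call of Laptm5 held without young 15 and was lost when any of the other 5 hearts was left out, with unadjusted edgeR p up to 0.103, and that of Npc1 without young 3, young 13 or aged 3.

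Abcb9 had the largest fall of all members. It encodes TAPL, a transporter that moves peptides from the cytosol into lysosomes. It was at 16.88, 21.24 and 4.006 CPM in the young and only 0.5255, 1.933 and 0.6897 CPM in the aged hearts (log2 fold change -3.74 ± 0.809, edgeR adjusted p = 0.0916). Entpd4, which encodes a nucleotide-splitting enzyme of Golgi and lysosome membranes, was at 74.35, 75.09 and 44.77 CPM against 25.52, 37.61 and 32.61 CPM (-1.02 ± 0.268, edgeR adjusted p = 0.0916). Of the Laptm family, Laptm4a was at 485.6, 464.1 and 299.9 CPM against 244, 225.8 and 227.1 CPM (-0.84 ± 0.261, edgeR adjusted p = 0.0976) and Laptm4b was also lower (-0.60 ± 0.211, edgeR adjusted p = 0.113), opposite in direction to Laptm5. The calls of Laptm4a and Laptm4b were lost in 4 and 5 of the single-heart omissions.

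Most genes of the proton pump were not past the limits. Of 20 tested pump genes, 4 were higher and 2 lower, against 13.2% and 19% of all genes tested, and their median log2 fold change was 0.24. The summed level of the pump genes was 1699.9, 1824.6 and 1966.5 CPM in the young and 2609.9, 2447.9 and 2135 CPM in the aged hearts. Without young 15 the pump counts were 8 and 3, against 26.9% and 24.2% of all genes tested. Without aged 3 they were 0 and 2, against 7.47% and 14.7%, and without both 7 and 3, against 27.2% and 26.2%. Under library totals alone 9 were higher and 2 lower, against 22.8% and 10.5% of all genes tested.

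In the V0 sector 3 of 10 tested genes were higher and 1 lower, against 13.2% and 19% of all genes tested. The median log2 fold change of the sector was 0.12. Tcirg1 encodes a3, the isoform of the membrane-embedded subunit a that osteoclasts and macrophages use, and lies at chr1:219127602-219139464 on the minus strand (Rnor_6.0). It was at 25.59, 27.79 and 112.3 CPM in the young and 223.3, 198.6 and 151.9 CPM in the aged hearts (log2 fold change 1.79 ± 0.621, edgeR adjusted p = 0.112). The other a isoforms did not pass the limits: the broadly expressed Atp6v0a1 was at 175.4, 194.9 and 123.3 CPM against 161.2, 141.2 and 128.6 CPM (-0.20 ± 0.237), Atp6v0a2 differed by -0.14 ± 0.19, and the kidney isoform Atp6v0a4 stayed under 1 CPM in each heart (-0.12 ± 0.466). These 3 small differences turned positive under library totals alone (0.30, 0.28 and 0.28).

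On the per-length FPKM scale, the share of Tcirg1 in the summed a isoforms was 14.56%, 14.42% and 48.62% in young 3, 13 and 15 and 62.28%, 60.32% and 56.7% in aged 3, 4 and 7. Atp6v0a1 held 69.84%, 70.76% and 37.35% in the young and 31.45%, 30% and 33.58% in the aged hearts. Tcirg1 was thus the most abundant a isoform transcript in all 3 aged hearts and in young 15, and Atp6v0a1 in the other young hearts. The difference in the Tcirg1 share was 33.9 percentage points, from 25.9% ± 19.7 to 59.8% ± 2.83 (SD, n = 3), with p = 0.1 in the two-sided exact permutation test, the smallest that 3 against 3 hearts allow, and 0.2 after adjustment over the 12 shares tested. FPKM shares add up to the whole, so a larger share of 1 isoform lowers the others by construction.

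The small membrane subunit e changed hands in the same hearts. Atp6v0e1 was higher, at 49.55, 54.68 and 75.5 CPM against 99.12, 100.4 and 82.23 CPM (log2 fold change 0.65 ± 0.218, edgeR adjusted p = 0.107). Atp6v0e2, the isoform enriched in brain, was lower, at 48.4, 53.85 and 23.29 CPM against 8.572, 18.16 and 14.29 CPM (-1.61 ± 0.414, edgeR adjusted p = 0.0916). The share of Atp6v0e2 in the summed FPKM of both genes was 72.47%, 72.63% and 45.4% in the young and 18.9%, 32.77% and 31.9% in the aged hearts (two-sided exact permutation p = 0.1, adjusted 0.2). Atp6v0c, which encodes the proton-carrying ring subunit, was at 252, 271.6 and 339.7 CPM against 489.5, 477 and 403.8 CPM (0.67 ± 0.237, edgeR adjusted p = 0.115). Atp6v0b, the other ring subunit, had an adjusted p of 0.0916 in edgeR but a log2 fold change of 0.58 ± 0.154, just short of the fold limit, while Atp6v0d1 (0.28 ± 0.208) and the accessory subunit gene Atp6ap1 (-0.04 ± 0.194) were not past the limits.

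**Figure D3:**
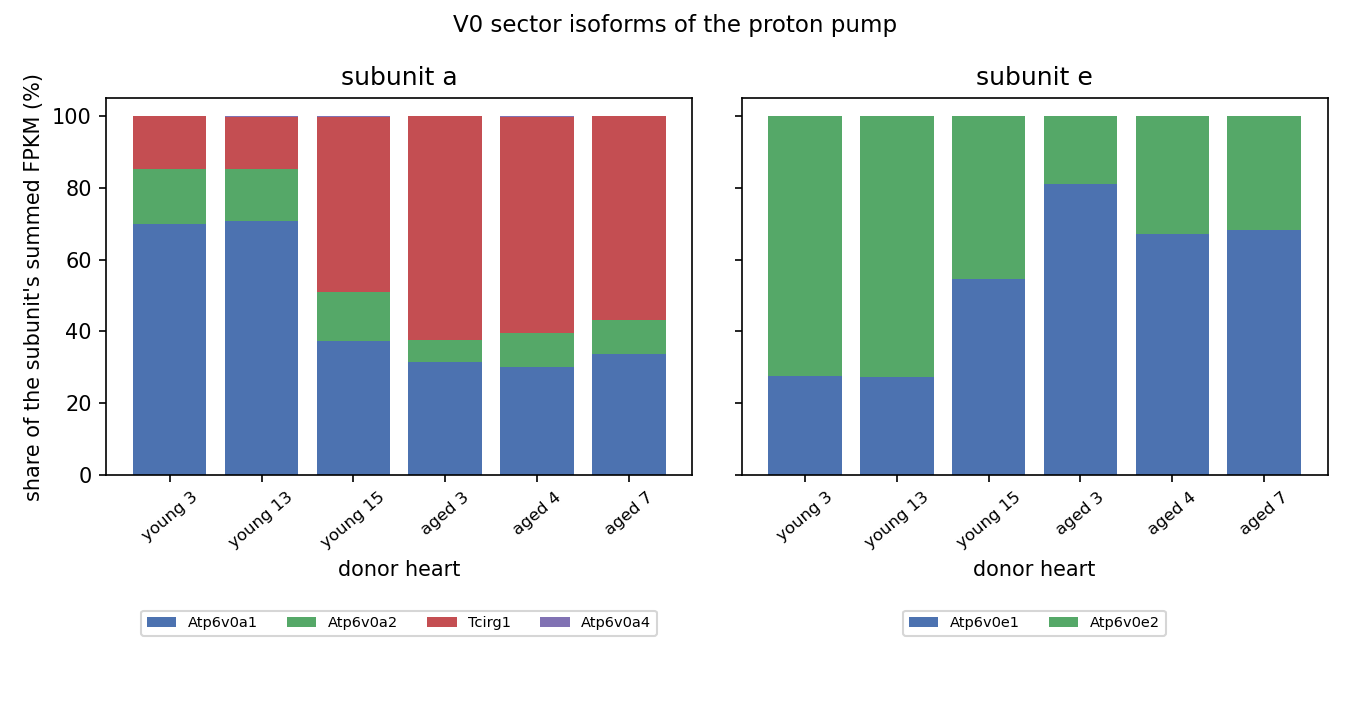
Share of each isoform in the summed FPKM of subunit a (left) and subunit e (right) of the V0 sector, in percent, 1 stacked bar per donor heart. Tcirg1 rises from 14.56% and 14.42% in young 3 and young 13 to between 56.7% and 62.28% in the aged hearts, with young 15 at 48.62%, and Atp6v0e1 takes over from Atp6v0e2 in the same hearts.

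In the V1 sector 1 of 10 tested genes was higher and 1 lower, against 13.2% and 19% of all genes tested. The median log2 fold change of the sector was 0.28, and the difference between the sectors was not tested. Without young 15 the counts were 4 higher and 2 lower in V1 and 4 and 1 in V0, against 26.9% and 24.2% of all genes. Atp6v1b2 encodes the B subunit of the ATP-splitting head that is used outside kidney and ear, and was at 135.3, 146.5 and 239.3 CPM in the young and 354.9, 308.6 and 261.3 CPM in the aged hearts (log2 fold change 0.83 ± 0.295, edgeR adjusted p = 0.115). Its partner in the head, Atp6v1a, was at 58.8, 66.57 and 147.3 CPM against 214, 142.6 and 134.4 CPM, so that young 15 lay above aged 4 and aged 7 (0.85 ± 0.413, not past the limits, and 1.42 and higher without young 15). Atp6v1c1 (0.56 ± 0.173) and Atp6v1h (0.44 ± 0.18), which encode the subunits that couple the sectors, had unadjusted p under 0.05 but not the fold.

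Atp6v1g2, the isoform of the stalk subunit G known from neurons, was the lower gene of the V1 sector, at 3.206, 6.74 and 1.487 CPM in the young and 0.427, 0.6066 and 0.3832 CPM in the aged hearts (log2 fold change -2.99 ± 0.632, edgeR adjusted p = 0.0916). It held at most 2.432% of the summed G FPKM in any heart, the rest being nearly all Atp6v1g1, which differed by 0.34 ± 0.175. Its span overlaps Nfkbil1 on the other strand and 3 RT1-CE genes on its own. The stalk and shaft genes Atp6v1e1 (-0.23 ± 0.208), Atp6v1d (-0.43 ± 0.237) and Atp6v1f (0.21 ± 0.202) and the low Atp6v1c2 (-0.33 ± 0.715) were not past the limits. The calls of Tcirg1, Atp6v0c, Atp6v0e1 and Atp6v1b2 were each lost without young 3, young 13, aged 3 or aged 4, with unadjusted edgeR p up to 0.0666, 0.117, 0.0893 and 0.104.

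Sorting and coat proteins were 7 higher and 2 lower of 27 tested, against 13.2% and 19% of all genes tested. The median log2 fold change of the group was 0.19. Gnptab encodes the enzyme that attaches the mannose-6-phosphate tag to new hydrolases and was at 53.48, 41.01 and 101 CPM in the young and 130.5, 112.1 and 119 CPM in the aged hearts (log2 fold change 0.89 ± 0.35, edgeR adjusted p = 0.134). Igf2r, the large receptor for that tag, was at 324, 386.8 and 584.1 CPM against 286.3, 416.2 and 301.9 CPM, with overlapping groups (-0.37 ± 0.317). LOC100909548, annotated as like the small mannose-6-phosphate receptor, was higher (0.84 ± 0.315, edgeR adjusted p = 0.123) at 3.052 to 5.163 CPM against 5.48 to 8.342 CPM, but reads shared with M6pr, which is no member and was not past the limits (0.62 ± 0.349), could be split between the copies.

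The clathrin light chains, which regulate the coat, differed in opposite directions. Clta was at 98.25, 83.8 and 178.3 CPM in the young and 291.8, 228 and 195.9 CPM in the aged hearts (log2 fold change 0.99 ± 0.347, edgeR adjusted p = 0.113), and Cltb was at 224.6, 247.9 and 153.6 CPM against 53.27, 148.4 and 112.5 CPM (-0.995 ± 0.409, edgeR adjusted p = 0.143). Aged 3 was the extreme heart for both. Ap1s1, a small subunit of the AP-1 adaptor, was higher (0.83 ± 0.315, edgeR adjusted p = 0.126), and Ap4s1, that of AP-4, was lower (-0.88 ± 0.285, edgeR adjusted p = 0.102). Each of these calls, and those of Gnptab and LOC100909548, was lost in at least 4 of the single-heart omissions, among them those of young 3, young 13 and aged 3.

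The 18 members that were not tested had too few counts for the filter. Hyal5, Hyal6, Spam1, Psapl1, Ctsg and Ctsm had 0 counts in every heart, which allows up to 3 counts in each heart and so covers counting error only. The osteoclast and macrophage isoform Atp6v0d2 had 1, 1 and 5 counts against 18, 4 and 3, Dnase2b 0, 0 and 3 against 10, 5 and 2, Atp6v1e2 1, 1 and 3 against 8, 3 and 9, Atp6v1b1 3, 9 and 2 against 1, 2 and 3, and Atp6v1g3 2 counts in young 3 and 0 elsewhere. Hyal4, Lamp3, Atp6v1fnb, Ctsj, Ap1m2 and Ap3b2 had between 0 and 11 counts per heart.

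**Figure D4:**
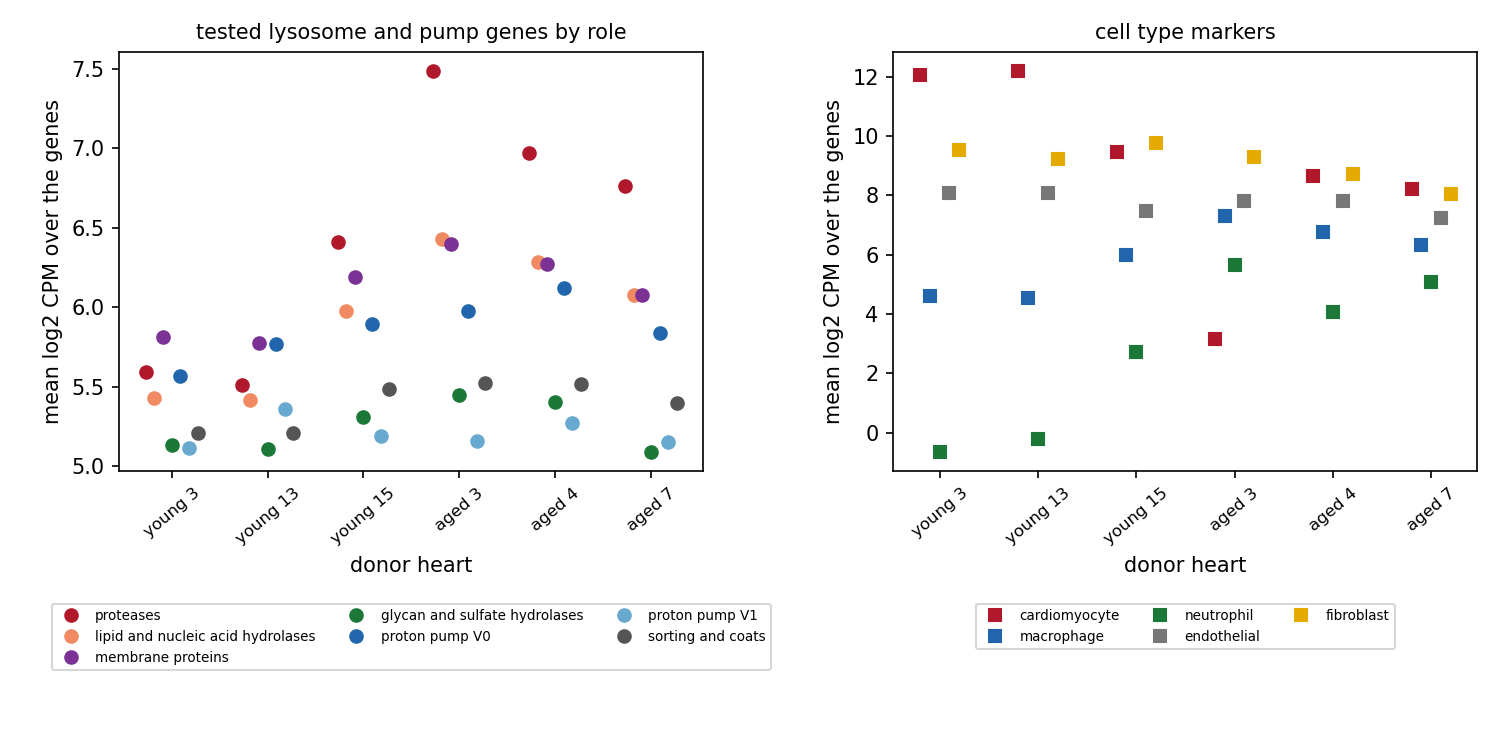
Mean log2 CPM over the tested members of each role (left) and over the tested markers of each cell type (right), 1 point per list in each of the 6 donor hearts; the points of a heart are spread sideways for legibility. The protease level runs from 5.51 and 5.59 in young 13 and young 3 through 6.41 in young 15 to 6.76 to 7.49 in the aged hearts, the macrophage level follows the same order of hearts, and the V1 level stays between 5.11 and 5.36.

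Some hearts took the same place for many members. Young 15 was the highest young heart for 78 of 117 tested members and for all 33 that were higher, and lay inside the range of the aged hearts for 43. Aged 3 was the highest of the 6 hearts for 62 members. These places were not counted over all genes tested, so they are not read as particular to the members. Aged 3 was also the extreme heart of the 3 marker lists, with young 15 the intermediate one, and the part of macrophages, neutrophils or lost cardiomyocyte RNA in the member levels was not tested beyond the covariate fits given above.

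The regulators of lysosome genes did not move as a family. Tfeb, the best-known activator, was at 51.12, 53.73 and 50.47 CPM in the young and 45.32, 53.64 and 45.6 CPM in the aged hearts (log2 fold change -0.10 ± 0.152, and 0.35 under library totals alone). Tfe3 was higher, at 21.54, 23.27 and 32.63 CPM against 40.69, 35.14 and 43.19 CPM (0.62 ± 0.215, edgeR adjusted p = 0.112). Tfec, the family member restricted largely to macrophages, was at 0.726, 0.6358 and 6.65 CPM against 24.37, 13.04 and 11.34 CPM (2.58 ± 0.958, edgeR adjusted p = 0.122). Mitf, which also has a heart isoform, was lower, at 104.5, 101.2 and 34.32 CPM against 25.39, 25.17 and 40.62 CPM, with young 15 inside the aged range (-1.40 ± 0.459, edgeR adjusted p = 0.104).

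Of 16 tested genes of the TFEB family and of nutrient sensing at the lysosome, 4 were higher and 3 lower. Over all genes tested, 13.2% were higher and 19% lower. Flcn, whose product folliculin lets mTORC1 act on TFEB, was at 201, 216.6 and 70.21 CPM in the young and 55.31, 69.45 and 50.89 CPM in the aged hearts (log2 fold change -1.47 ± 0.436, edgeR adjusted p = 0.0942). Rragd, a Rag GTPase on which folliculin acts, was at 42.23, 49.02 and 5.452 CPM against 0.2299, 3.45 and 5.058 CPM (-3.47 ± 1.2, edgeR adjusted p = 0.111), and its relative Rragc was higher (0.65 ± 0.266, edgeR adjusted p = 0.143), as was the folliculin partner gene Fnip2 (0.93 ± 0.28, edgeR adjusted p = 0.0953). Leaving out single hearts ended the call of Tfe3, Tfec and Mitf in 4, 5 and 4 of the 6 omissions, those of young 3, young 13 and aged 3 among them, that of Rragd in 3 and that of Flcn in 1. Without aged 7 the call of Flcn ended at an unadjusted edgeR p of 0.0511. The counts of this list were 4 and 4 without young 15, against 26.9% and 24.2% of all genes. They were 1 and 2 without aged 3, against 7.47% and 14.7%, and 4 and 4 without both, against 27.2% and 26.2%. The cardiomyocyte markers, like Flcn, Mitf and Rragd, were lower in young 15 and the aged hearts than in young 3 and young 13. With the cardiomyocyte marker level as a covariate the sign turned for Rragd but not for Flcn or Mitf. The cardiomyocyte level did not overlap between the groups, so that fit cannot separate it from donor age. The part of these markers in the values was not tested beyond that fit.

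Of the autophagosome list, 1 of 16 tested genes was higher, 6 were lower and 9 were neither. Over all genes tested, 13.2% were higher and 19% lower. Map1lc3a, an LC3 gene, was at 352, 388.8 and 107.8 CPM in the young and 44.21, 94.7 and 90.24 CPM in the aged hearts (log2 fold change -1.89 ± 0.553, edgeR adjusted p = 0.0934). Map1lc3b (-0.67 ± 0.317) and Gabarapl1 (-0.63 ± 0.297) were not past the limits, and the cargo receptor gene Sqstm1 was at 252.6, 288.3 and 306.5 CPM against 251.3, 476.7 and 575.4 CPM (0.62 ± 0.347, overlapping). Ulk1, the kinase gene that starts autophagy, and Atg7, the higher gene of the list, were picked after their values were seen: Ulk1 fell by 2.16 ± 0.508 on the log2 scale (edgeR adjusted p = 0.0916) and Atg7 differed by 1.47 ± 0.403 (edgeR adjusted p = 0.0921). The list gave 2 higher and 8 lower without young 15, against 26.9% and 24.2% of all genes. It gave 2 and 3 without aged 3, against 7.47% and 14.7%, and 3 and 8 without both, against 27.2% and 26.2%. Under library totals alone it gave 4 and 4, against 22.8% and 10.5% of all genes. With the macrophage covariate it gave 0 and 0, against 1.36% and 3.06%, and its median log2 fold change turned from -0.37 to 0.22.

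Genes of fusion with late endosomes were 3 higher and 0 lower of 15 tested, against 13.2% and 19% of all genes tested. The 3 were Vamp8, Snap29 and Arl8a. Without aged 3 the list gave 0 and 0 of 15, against 7.47% and 14.7%. Rab7a, the GTPase of late endosomes, differed by 0.09 ± 0.199 over all hearts. The cathepsin inhibitors were split. Cstb, the cytosolic cystatin B gene, was at 42.35, 40.69 and 90.04 CPM in the young and 164.4, 136.7 and 125.5 CPM in the aged hearts (log2 fold change 1.301 ± 0.356, edgeR adjusted p = 0.092), and Cst3, the gene of secreted cystatin C, was at 333.7, 366.3 and 308.6 CPM against 171.3, 275.5 and 146.9 CPM (-0.76 ± 0.294, edgeR adjusted p = 0.129). Atp6ap2, an accessory gene of the pump that the table does not assign to the lysosome, was higher at 25.59, 20.66 and 69.3 CPM against 131.3, 79.61 and 93.35 CPM (1.39 ± 0.5, edgeR adjusted p = 0.116). The calls of Cst3 and Atp6ap2 were lost without young 3, young 13, aged 3 or aged 7, and that of Cstb in no omission. The macrophage lysosome genes Gpnmb, Lgals3, Grn and Trem2 were not past the limits, with log2 fold changes of 2.13 ± 1.7, 1.95 ± 1.06, 1.00 ± 0.473 and 1.00 ± 0.964. Gpnmb stood at 15.55 and 14.05 CPM in young 3 and young 13 and at 1385 CPM in young 15. For Gpnmb and Lgals3 every aged heart lay above every young heart, and for Grn and Trem2 the groups overlapped. These genes and Atp6ap2 came from a list of 14 tested partners outside the pathway. That list gave 4 higher and 0 lower, against 13.2% and 19% of all genes tested. It gave 9 and 1 without young 15, against 26.9% and 24.2%, and 3 and 0 without aged 3, against 7.47% and 14.7%. As a reference, the KEGG autophagy genes were 16 higher and 18 lower of 126 tested, against 13.2% and 19% of all genes tested. Those of protein processing in the endoplasmic reticulum were 20 and 12 of 149, and those of the proteasome 0 and 0 of 42. Of the proteasome genes, 1 had an unadjusted p under 0.05 in edgeR and DESeq2 called 0 at an adjusted p under 0.05.

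**Figure D5:**
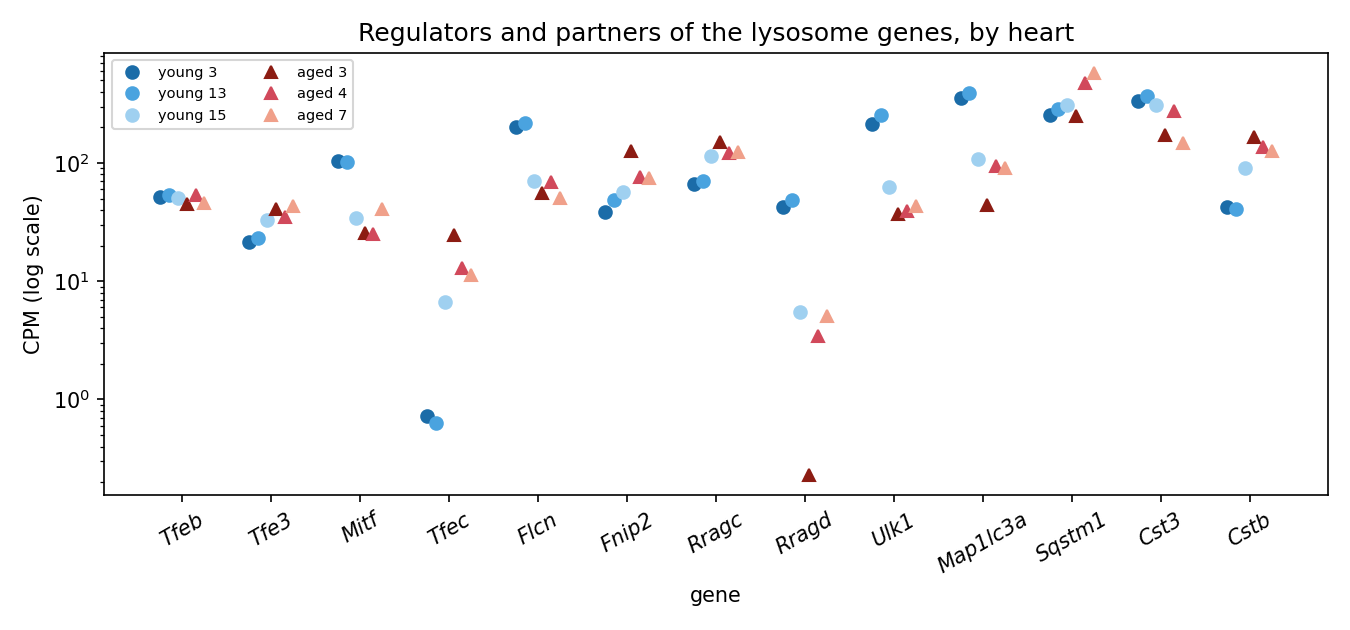
CPM (log axis) of 13 regulators and partners of the lysosome genes in each donor heart, circles for the young and triangles for the aged hearts. Tfeb lies between 45.32 and 53.73 CPM in all hearts, Tfe3 and Tfec are higher and Flcn, Rragd and Map1lc3a lower in the aged hearts, and young 15 lies apart from the other young hearts for Mitf, Tfec, Flcn, Rragd, Ulk1 and Map1lc3a.

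E-boxes were found in a larger share of member promoters than of all promoters, and members past the limits were found both with and without them. CACGTG, a palindrome that reads alike on both strands, was found between 250 bases before and 50 after the start in 19 of 111 matched members (17.1%) and in 7.08% of all 27457 genes with a promoter in the table. The longer GTCACGTG, on either strand and always containing a CACGTG, was in 15 members (13.5%) and in 2.09% of all genes. GTCACGTG followed by AC, the full palindromic CLEAR core, was in 3 members, Galc, Igf2r and Sumf1 (2.7%), and in 0.28% of all genes. The 27457 genes were not limited to those tested in these hearts, whereas 117 of the 135 members were tested. The sets compared are thus unlike, and shares among tested genes only were not computed. Of the tested members with CACGTG, 5 of 19 were higher and 0 lower, with a median log2 fold change of 0.28. Of those without, 22 of 77 were higher and 10 lower, with a median of 0.35. Among all genes tested, 13.2% were higher and 19% lower. The difference between members with and without the motif was not tested.

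The printed promoters show the same. Lamp1 has 5 CACGTG in the sequence above, the most of any member, 4 of them within GTCACGTG or its reverse complement, and was not past the limits. Ctsd has 2 and was higher, Galc has the full core close to its start and was higher, and Tcirg1 has 0 and was also higher, while Abcb9 has 0 and had the deepest fall. By role, CACGTG was found in 5 of 19 matched membrane protein genes, 5 of 27 sorting genes, 4 of 22 glycan hydrolase genes, 2 of 13 protease genes, 2 of 9 V0 genes, 1 of 11 lipid hydrolase genes and 0 of 10 V1 genes. A match describes these letters only, and RefSeq starts need not be those used in the heart.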

How the data were processed

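The authors sequenced polyadenylated RNA of 3 young and 3 aged donor hearts and deposited raw read counts per gene, without normalization, beside FPKM values, which are those counts scaled by gene length and by the total count of the heart. The submitters' processing notes name HISAT2 2.0.5, featureCounts 1.5.0-p3 and build Rnor_6.0, without roles; the strand setting is not given in the sources used here. Columns of per-heart values that belong to no listed sample numbered 0.

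Aged and young hearts were compared with edgeR 4.0.16 in R 4.3.3 (filterByExpr with a minimum count of 10 and a total of 15, TMM scaling, glmQLFit and glmQLFTest, no covariates), on the whole table, and p-values were adjusted by the Benjamini-Hochberg method over all genes tested. Standard errors were obtained from the F statistic, as the size of the log2 difference over its square root. DESeq2 1.42.0 and limma-voom 3.58.1 with quality weights served as alternatives. CPM are TMM-scaled, and log2 CPM used a prior count of 2. Isoform shares were taken from FPKM and compared by exact permutation of the hearts. P-values measure the spread between 3 hearts a group, and total counts limit precision only for the scarce members. Scripts were tested on simulated counts. Promoters from RefSeq were searched in Python 3.11.15.

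The members, roles, partner lists and markers were chosen with earlier results of these data known, and 9 members were placed in a role after the table was read. Genes were named by this rule: all pump genes, the 4 largest rises and falls of each other role among members past the limits with at least 1 CPM and no overlap, and a set list of well-known lysosome genes and partners. Ctsc, Gga3, Wipi1, Rragc, Fnip2, Vamp8, Snap29, Arl8a, Ulk1 and Atg7 fall outside it and were chosen after their values were seen. Protein sequences were not analysed here, and some members that the rule would name are not reported here.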

Additional observations from a re-analysis of the deposited data

How the results depend on the processing

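The counts of members past the limits changed with the hearts and the threshold. With a single heart, or young 15 and aged 3 together, left out, the higher members ranged from 7 to 49, the lower members from 8 to 16 and the higher pump genes from 0 to 8, as the report gives heart by heart, the lowest count of higher members being that without young 3 and the highest that without young 15. Without young 15 and aged 3 together, 7 pump genes were higher. Over all genes tested, the same omissions gave from 5.83% to 27.2% higher and from 11.5% to 26.2% lower. At an edgeR adjusted p under 0.05 there were 0 members and 0 pump genes in either direction. Under 0.1 there were 12 higher members and 0 higher pump genes, against 6.49% of all genes. Library totals alone gave 6 lower members and 9 higher pump genes, where 10.5% of all genes were lower and 22.8% higher. The cardiomyocyte covariate left 3 higher and 1 lower member, against 2.34% and 2.76% of all genes. The macrophage covariate left 0 and 1, against 1.36% and 3.06%. Each left 0 pump genes higher and 0 lower, and the cause was not tested. The DESeq2 Wald test, DESeq2 size factors and the other count filters kept every member count within 1.5 times. So did limma-voom, with 45 higher and 17 lower members and 6 and 3 pump genes, against 26.8% and 27.7% of all genes.

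Of 86 named genes, the sign of the log2 fold change turned for 47 with the macrophage covariate, 14 with the cardiomyocyte covariate, 10 under library totals and at most 5 elsewhere. With the macrophage covariate these were Ap1s1 (-0.16), Ap4s1 (0.060), Atp6ap1 (0.14), Atp6ap2 (-0.083), Atp6v0a1 (0.21), Atp6v0d1 (-0.17), Atp6v1a (-0.48), Atp6v1b2 (-0.030), Atp6v1c2 (0.96), Atp6v1d (0.24), Atp6v1e1 (0.27), Atp6v1h (-0.016), Cd63 (-0.14), Cd68 (-1.13), Clta (-0.11), Cltb (0.034), Ctsb (-0.067), Ctsz (-0.36), Dnase2 (-0.17), Flcn (0.12), Fuca1 (-0.18), Gaa (0.26), Gabarapl1 (0.41), Galc (-0.22), Glb1 (-0.30), Gnptab (-0.081), Gpnmb (-1.42), Grn (-0.51), Gusb (-0.44), Hexa (-0.62), Lamp2 (-0.089), Laptm5 (-0.19), Lgals3 (-0.55), Lgmn (-0.20), Lipa (-0.020), LOC100909548 (-0.0056), M6pr (-0.0047), Map1lc3a (0.39), Map1lc3b (0.49), Mcoln1 (-0.013), Mitf (0.47), Npc1 (-0.0069), Rab7a (-0.11), Rragd (0.93), Tcirg1 (-0.0026), Tfec (-0.047) and Trem2 (-1.81). With the cardiomyocyte covariate they were Atp6ap1 (0.0024), Atp6v0a2 (0.040), Atp6v1c2 (1.05), Atp6v1e1 (0.022), Cltb (0.033), Gabarapl1 (0.077), Glb1 (-0.062), Hexa (-0.081), Lamp1 (-0.034), Lamp2 (-0.061), Lipa (-0.093), Rab7a (-0.069), Rragd (0.21) and Tfeb (0.015). Under library totals alone they were Atp6ap1 (0.43), Atp6v0a1 (0.30), Atp6v0a2 (0.28), Atp6v0a4 (0.28), Atp6v1c2 (0.12), Atp6v1d (0.071), Atp6v1e1 (0.26), Ctsk (0.38), Igf2r (0.0096) and Tfeb (0.35), all genes outside the limits. Under limma-voom they were Atp6v0a4 (0.23) and Ctsk (0.16), and with no filter Ctsk (0.0040). With a single heart, or that pair, left out, values that changed sign ranged for Atp6ap1 from -0.10 to 0.050, Atp6v0a2 from -0.27 to 0.087, Atp6v0a4 from -0.41 to 0.23, Atp6v1c2 from -0.81 to 0.13, Ctsk from -0.14 to 0.28 and Igf2r from -0.55 to 0.054. The share of Atp6v1g3, which rests on 2 counts, ranged from -0.027 to 0 percentage points. The differences in the other isoform shares kept their direction under each omission and with counts in place of FPKM.

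No paired analysis was possible because the groups share only animal number 3, which counts animals within a group. The 18 members under the count filter were not tested, and low depth and absent expression cannot be told apart there. With 3 hearts a group, outlying hearts were not searched for by a rule.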
